A study of Homo sapiens with 9 samples.

Results

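The genes of sterol and fatty acid synthesis were followed in GM12878 cells exposed to sulforaphane. The list named 36 genes in 5 classes, which were the early steps of sterol synthesis, its late steps, the SREBP regulators, sterol uptake and transport, and the enzymes of fatty acid and lipid synthesis. A gene was measured through a transcript cluster, a group of probes that the array reads as 1 gene, where the annotation gave that cluster this symbol and no other. Of the 36 genes, 30 had such a cluster, out of 22011 clusters on the array. These 30 members comprised 6 early sterol genes, 8 late sterol genes, 4 SREBP regulators, 3 genes of uptake and transport and 9 fatty acid and lipid enzymes. ACAT2, CYP51A1, HSD17B7, SREBF2 and ELOVL5 lay only in clusters shared with other symbols, and FDFT1 was not analysed here. IDI1, FDPS, SCAP, NPC1, FADS1 and FADS2 were each also named in 1 shared cluster, whose values are not given here.

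GM12878 is a B-cell line that Epstein-Barr virus has immortalised, so all results come from 1 cell line. The 9 Affymetrix Human Exon 1.0 ST arrays measured untreated cells at 0 h and cells in 10 µM D,L-sulforaphane for 8 h or 24 h, with 3 cultures per group and 1 array per culture. All cultures grew in medium with 15% serum. The treatment protocol names a 0.1% DMSO vehicle, but no vehicle array and no untreated array at 8 h or 24 h was used here. Time in culture, vehicle and sulforaphane therefore cannot be told apart. The labels do not say whether the cultures of a group were set up independently, so the p-values measure the spread between these arrays, which may be technical.

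Cholesterol is built from acetyl-CoA through mevalonate and farnesyl diphosphate in the early steps, and from squalene through lanosterol in the late steps. The same acetyl-CoA feeds fatty acid synthesis, whose products are then desaturated and elongated. Both pathways are controlled by the SREBP transcription factors. When sterols are plentiful, INSIG proteins hold SREBP and its escort SCAP in the endoplasmic reticulum. When sterols fall, SCAP carries SREBP to the Golgi, where it is cut and released to switch these genes on. Sulforaphane is an isothiocyanate from cruciferous plants, best known as an activator of the antioxidant factor NFE2L2.

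Values are log2 signals, so a difference of -1 is a halving, and they were compared by limma over all 22011 clusters with Benjamini-Hochberg adjustment. A gene was called, and is said to have risen or fallen, at an adjusted p below 0.05. Apart from the cell type markers, which are ranked among all clusters, levels are set against each other for the same gene only. The 7 B-cell markers checked, including MS4A1 and CD79A, lay between the 85.6th and the 98.7th percentile of all clusters. The 14 markers of T cells, myeloid cells, hepatocytes and fibroblasts lay between the 4.44th and the 55.5th percentile, and no marker of any type was called in any comparison. Arrays correlated with a median of 0.992 within groups and 0.989 between groups.

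Replicate 2 of the untreated cells differed from all others. Its upper-quartile signal was 9.28, against 9.42 to 9.63 on the other 8 arrays, and it lay alone on the first principal component at 54.4, with the others between -29.9 and 16.4. It was the lowest of the 3 untreated arrays for 20 of the 30 members, where 46.7% of all clusters were lowest there. It lay more than 0.3 below the mean of the other untreated arrays for 9 members, against 25.1% of all clusters. Results that rest on it are therefore given with and without this array.

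After 24 h in sulforaphane, 4 of the 30 members fell and none rose against untreated cells. They were DHCR7, which acts at the end of cholesterol synthesis, and 3 fatty acid desaturases, SCD, FADS1 and FADS2. Over all clusters 1.62% were called at 24 h, 0.791% lower and 0.831% higher. These were 174 lower and 183 higher clusters, with 344 and 216 after quantile normalization and 306 and 204 after centring each array on its median. The share called was larger among brighter clusters. With clusters below the median signal left out, 460 of 11006 were called at 24 h, 220 of them lower. In that fit, which also left out members below the median, 5 members were called, all lower. A lower mean in bulk RNA does not tell fewer cells of a type from less RNA per cell. At 8 h no member was called by limma, where 0.595% of all clusters were called, and 12 of the 30 had an unadjusted p below 0.05, which 15.1% of all clusters had. Of those 12 members, 11 were lower, where 6.57% of all clusters were lower at that level, and NPC1 was higher. The estimate was below that of untreated cells for 22 of 30 members at 8 h, where 53.0% of all clusters were lower, and for 25 of 30 without untreated replicate 2, where 55.3% were. At 24 h it was also below for 22 of 30, where 46.9% were lower, and for 25 of 30 without that array, where 47.5% were. At 24 h 14 members had an unadjusted p below 0.05, which 20.4% of clusters had, and 12 of them were lower, as were 6.45% of clusters. The F-test over all 3 times called 4 members, TM7SF2, DHCR7, FADS1 and FADS2, with 1.35% of all clusters called. Both comparisons use the same untreated arrays, so they are not independent of each other.

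The calls at 24 h depended on single arrays. Without untreated replicate 2 the count was again 4, with HMGCS1 called in place of FADS2 (1.43% of all clusters were then called). At 8 h FADS1 was then called (1.32% of clusters), and the F-test called 5 members (1.95% of clusters). Leaving out untreated replicate 1 gave 3 calls (768 of all clusters), leaving out 8 h replicate 2 gave 4 (343 clusters), and leaving out 8 h replicate 3 gave 1 (101 clusters). No member was called when any of the 24 h arrays, the first 8 h array or the third untreated array was left out. In these 5 fits 21 to 56 of all clusters were called, against 357 with all arrays, so calls were lost across the array and not among the members alone. The 24 h differences of the 4 called members kept their sign, with DHCR7 between -0.65 and -0.58 over all 9 arrays left out in turn. SCD lay between -0.93 and -0.72, FADS1 between -0.33 and -0.28 and FADS2 between -0.42 and -0.37. Among uncalled members, INSIG2 lay between 0.45 and 0.80 and IDI1 between -0.33 and -0.15.

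**Figure D1:**
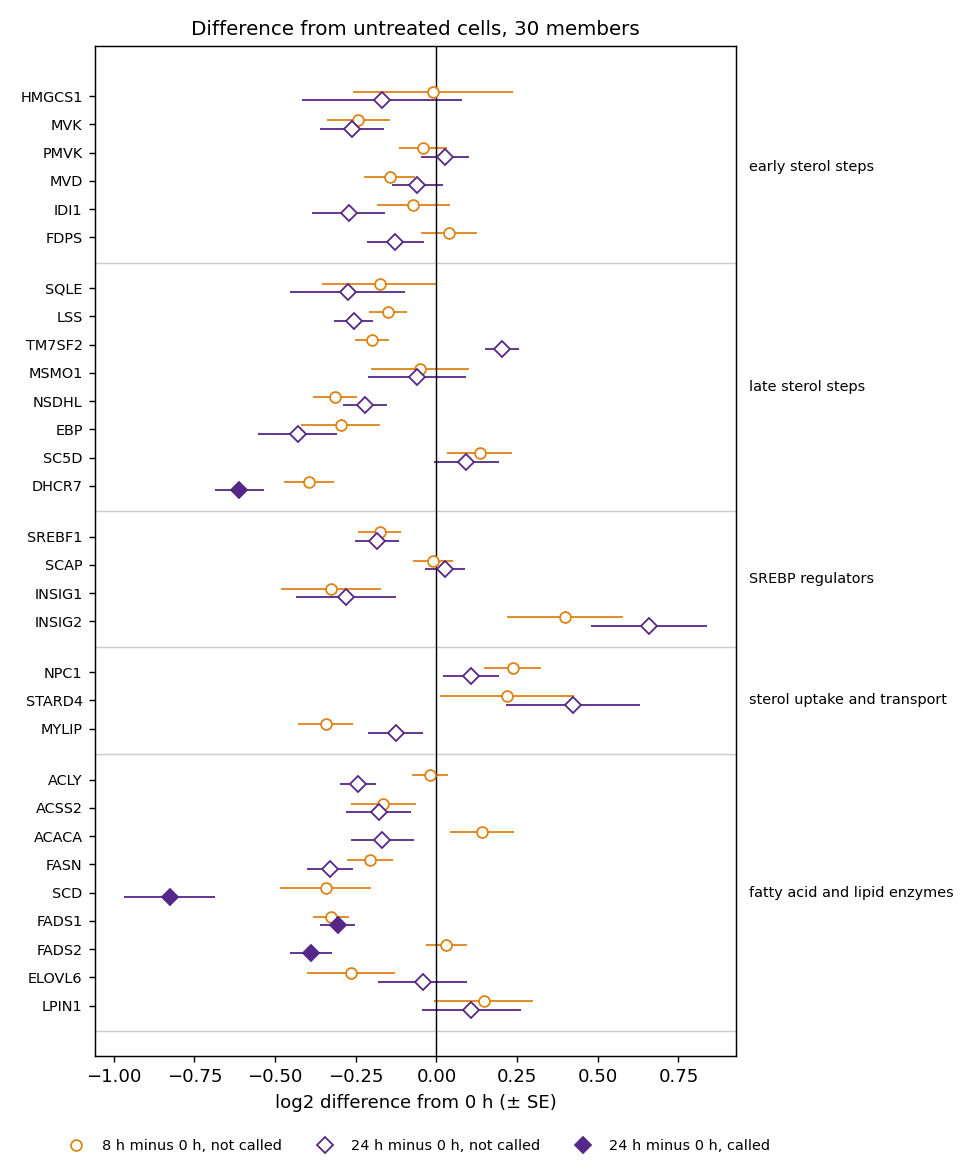
Log2 difference from untreated cells for the 30 members, by class, at 8 h (circles) and 24 h (diamonds), with bars of 1 standard error from the fit over 3 arrays per group. Filled symbols were called. The 4 filled diamonds, DHCR7, SCD, FADS1 and FADS2, lie left of 0, and INSIG2 lies farthest right.

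DHCR7 reduces 7-dehydrocholesterol to cholesterol. Its log2 signals were 10.70, 10.63 and 10.64 at 0 h, 10.28, 10.13 and 10.38 at 8 h, and 10.04, 9.98 and 10.12 at 24 h. No array of one time overlapped with another time. DHCR7 fell at 24 h, by 0.61 ± 0.08 on the log2 scale (SE, n = 3 each), a 1.53-fold lower signal (limma adjusted p = 0.017). At 8 h the difference was -0.40 ± 0.08 and did not pass (limma adjusted p = 0.067). The step between 8 h and 24 h was -0.22 ± 0.08 and did not pass either (limma adjusted p = 0.37). Without untreated replicate 2 the 24 h difference was -0.62 (limma adjusted p = 0.025).

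TM7SF2, a sterol C14-reductase that acts just after the lanosterol demethylase, had its lowest signals at 8 h and its highest at 24 h. It had 9.40, 9.45 and 9.42 at 0 h, 9.24, 9.16 and 9.27 at 8 h, and 9.63, 9.61 and 9.64 at 24 h. Every 8 h array was below, and every 24 h array above, all untreated arrays. TM7SF2 rose between 8 h and 24 h, by 0.40 ± 0.05, a 1.32-fold higher signal at 24 h (limma adjusted p = 0.033). It was the only member called in that comparison, in which 0.327% of all clusters were called and 0.100% called higher. In the same comparison 7 members had an unadjusted p below 0.05, against 10.4% of clusters, and 19 of 30 were lower, against 42.1% of clusters. Against untreated cells, neither the 8 h difference of -0.20 ± 0.05 nor the 24 h difference of 0.20 ± 0.05 passed (limma adjusted p = 0.14 and 0.11). The 24 h difference from untreated cells was 0.07 after quantile normalization and 0.14 after centring. The rise from 8 h to 24 h passed without untreated replicate 1 or untreated replicate 2, and it did not pass when any one of the other 7 arrays was left out (limma adjusted p between 0.070 and 0.18). LBR, the other human sterol C14-reductase, differed by 0.06 ± 0.18 at 24 h (limma adjusted p = 0.86).

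The other late sterol genes were mostly lower without passing the test. LSS, which closes squalene epoxide into lanosterol, had 9.52, 9.55 and 9.58 at 24 h, against 9.80, 9.80 and 9.82 in untreated cells. The groups did not overlap, and the difference was -0.26 ± 0.06 (limma adjusted p = 0.084). NSDHL, which helps strip the C4 methyl groups, had 10.19, 10.09 and 10.06 at 0 h, 9.79, 9.71 and 9.90 at 8 h, and 9.86, 9.91 and 9.91 at 24 h. The treated arrays were all lower, and the difference was -0.31 ± 0.07 at 8 h and -0.22 ± 0.07 at 24 h (limma adjusted p = 0.085 and 0.15). EBP, the sterol isomerase, differed by -0.43 ± 0.12 at 24 h (limma adjusted p = 0.13). SC5D, the sterol C5-desaturase, gave 0.09 ± 0.10 at 24 h (limma adjusted p = 0.59). Of the 8 late sterol genes, 7 were lower at 8 h and 6 at 24 h. The class median difference was -0.19 at 8 h and -0.24 at 24 h, where the median over all clusters was -0.01 and 0.02. It stayed negative in both comparisons under all 22 alternative settings.

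SQLE and MSMO1 are late enzymes whose untreated mean rests on untreated replicate 2. SQLE, the squalene epoxidase, had 9.92, 9.65 and 9.87 at 24 h, against 10.36, 9.63 and 10.27 in untreated cells. Untreated replicate 2 was below every treated array, while the other untreated arrays lay above all treated ones. With all arrays the 24 h difference was -0.27 ± 0.18 (limma adjusted p = 0.38), and without that array -0.50 ± 0.09 (limma adjusted p = 0.053). MSMO1, the C4-methyl sterol oxidase, gave -0.06 ± 0.15 with all arrays and -0.24 ± 0.10 without untreated replicate 2, and neither passed (limma adjusted p = 0.82 and 0.31).

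Among the early genes, none of 6 was called at 8 h or at 24 h by limma, and MVK and IDI1 had an unadjusted p below 0.05 at 24 h. MVK, mevalonate kinase, had 8.58, 8.73 and 8.77 at 24 h, against 8.95, 8.97 and 8.95 in untreated cells, and 8.80, 8.50 and 8.85 at 8 h. All 6 treated arrays lay below the untreated ones, and the 24 h difference was -0.26 ± 0.10 (limma adjusted p = 0.21). IDI1, the isopentenyl diphosphate isomerase, had 10.18, 9.80 and 9.80 at 0 h, 9.82, 9.78 and 9.96 at 8 h, and 9.71, 9.55 and 9.70 at 24 h. The 24 h arrays were below all others. Its difference was -0.27 ± 0.11 at 24 h (limma adjusted p = 0.23), with untreated replicate 1 high, and -0.15 without that replicate. PMVK, MVD and FDPS, which make the later mevalonate intermediates and farnesyl diphosphate, differed by between -0.14 and 0.04 at both times.

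HMGCS1, which makes the HMG-CoA that enters the mevalonate pathway, had the largest spread of the members in untreated cells. Its signals were 9.62, 8.56 and 9.51 at 0 h, 9.23, 9.27 and 9.15 at 8 h, and 9.19, 8.93 and 9.07 at 24 h. Untreated replicate 2 differed by -1.01 from the mean of the other untreated arrays and was the lowest of all 9, while both other untreated arrays were above all 6 treated ones. The 24 h difference was -0.17 with a 95% confidence interval from -0.74 to 0.40 over all arrays (limma adjusted p = 0.69). Without untreated replicate 2 it was -0.50 ± 0.09 (limma adjusted p = 0.049). The early class median was -0.06 at 8 h and -0.15 at 24 h, and -0.13 and -0.23 without that array. All 6 early genes were then lower at both times. Without untreated replicate 1 the 8 h median was 0.02.

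**Figure D2:**
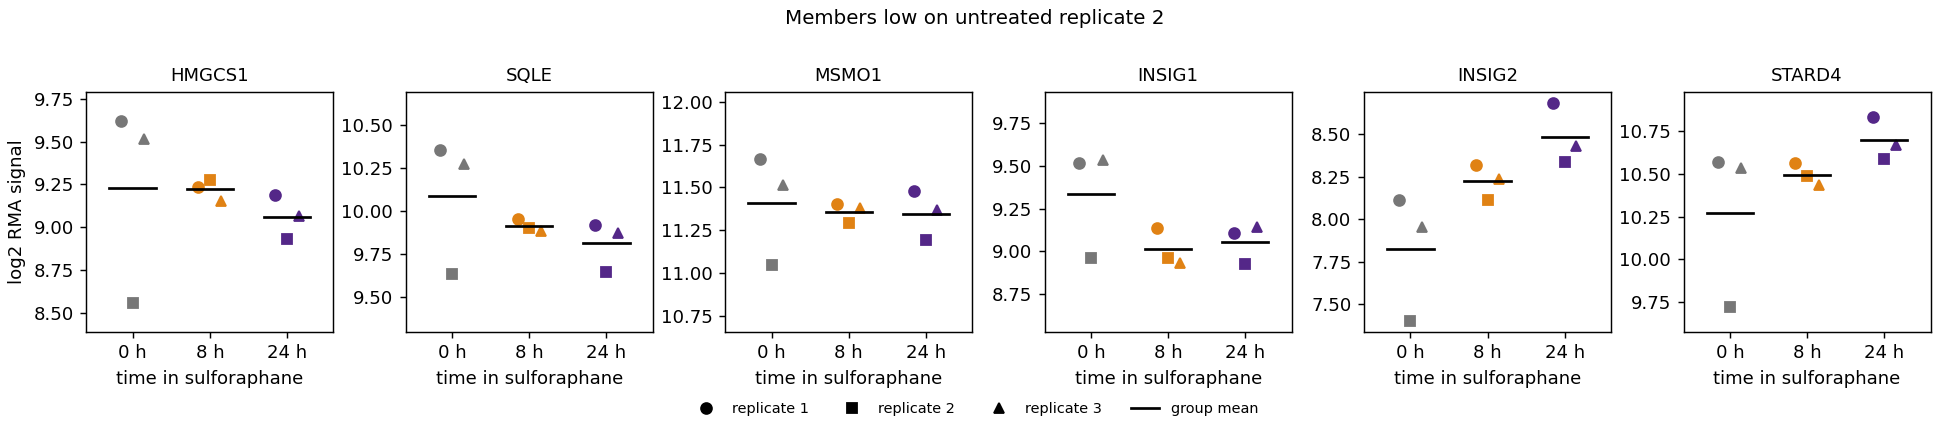
Log2 signal of 6 members on each array, by hours in sulforaphane, with replicates 1, 2 and 3 as circles, squares and triangles and the group mean as a line. In each panel the grey square, untreated replicate 2, lies well below both other untreated arrays. All panels span the same number of log2 units.

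None of the 4 SREBP regulators was called at any time. SREBF1, which encodes SREBP-1, had 8.42, 8.52 and 8.56 at 24 h, against 8.59, 8.73 and 8.72 in untreated cells, and 8.53, 8.53 and 8.45 at 8 h. The arrays of both times lay below the untreated arrays, with differences of -0.18 ± 0.07 at 8 h and -0.18 ± 0.07 at 24 h (limma adjusted p = 0.27 and 0.20). SCAP, the SREBP escort, gave 0.03 at 24 h with a 95% confidence interval from -0.12 to 0.17.

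The INSIG genes, whose proteins retain SREBP, had estimates of opposite sign. INSIG1, itself a classical SREBP target, had 9.10, 8.92 and 9.14 at 24 h, against 9.51, 8.96 and 9.54 in untreated cells. Its difference was -0.28 ± 0.15, and -0.47 ± 0.09 without untreated replicate 2 (limma adjusted p = 0.32 and 0.064). INSIG2 had 8.11, 7.40 and 7.95 at 0 h, 8.32, 8.11 and 8.24 at 8 h, and 8.68, 8.33 and 8.43 at 24 h. Every 24 h array was above every untreated and every 8 h array. The 24 h difference was 0.66 ± 0.18, 1.58-fold higher, the highest estimate of the 30 members, and it did not pass (limma adjusted p = 0.12). It was 0.45 ± 0.12 without untreated replicate 2 (limma adjusted p = 0.13).

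Of the uptake and transport genes, none of 3 was called. NPC1, which moves cholesterol out of lysosomes, had 9.56, 9.27 and 9.45 at 0 h, 9.68, 9.56 and 9.75 at 8 h, and 9.57, 9.47 and 9.56 at 24 h. The lowest 8 h array and the highest untreated array were equal to 2 decimals, and untreated replicate 2 was the lowest of all 9. The 8 h difference was 0.24 ± 0.09 (limma adjusted p = 0.27), and 0.16 without that array. At 24 h it was 0.11 ± 0.09, and 0.03 without it. MYLIP, a ubiquitin ligase that sends the LDL receptor for degradation, had 7.78, 7.67 and 7.96 at 0 h, 7.54, 7.45 and 7.39 at 8 h, and 7.63, 7.67 and 7.73 at 24 h. All 8 h arrays were below the untreated ones, with a difference of -0.34 ± 0.09 (limma adjusted p = 0.12), and -0.41 without untreated replicate 2. The 24 h arrays overlapped with the untreated ones, at -0.13 ± 0.09, and -0.20 without that array. STARD4, a cytosolic sterol carrier, had 10.83, 10.59 and 10.67 at 24 h, against 10.57, 9.72 and 10.53 in untreated cells. Its 24 h difference was 0.42 ± 0.21, and 0.15 ± 0.08 without untreated replicate 2 (limma adjusted p = 0.28 and 0.46). The class median was 0.22 at 8 h and 0.11 at 24 h. It was -0.06 at 8 h without untreated replicate 2, and -0.03 at 24 h after quantile normalization, so the sign for this class is not settled.

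The fatty acid enzymes held 3 of the 4 calls at 24 h, and each of the 3 genes encodes a desaturase. SCD, the stearoyl-CoA desaturase that makes monounsaturated fatty acids, had the lowest estimate of all members. Its signals were 10.89, 10.52 and 10.77 at 0 h, 10.38, 10.21 and 10.56 at 8 h, and 9.91, 9.69 and 10.10 at 24 h. The 24 h arrays were below all others, and the 8 h and 0 h arrays overlapped. SCD fell at 24 h by 0.83 ± 0.14, 1.77-fold lower (limma adjusted p = 0.036), with 0.93 ± 0.14 as the size of the fall without untreated replicate 2. At 8 h the difference was -0.34 ± 0.14, and between 8 h and 24 h it was -0.48 ± 0.14 (limma adjusted p = 0.31 and 0.27).

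FADS1, the delta-5 desaturase of polyunsaturated fatty acids, was low at both times. It had 10.58, 10.51 and 10.51 at 0 h, 10.18, 10.20 and 10.24 at 8 h, and 10.21, 10.19 and 10.28 at 24 h. The 6 treated arrays lay together below the untreated ones. FADS1 fell at 24 h by 0.31 ± 0.05, 1.24-fold lower (limma adjusted p = 0.040). The 8 h difference of -0.33 ± 0.05 missed the threshold at a limma adjusted p of 0.0503, and passed without untreated replicate 2 at 0.044. It was the member nearest to a call at 8 h.

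FADS2, the delta-6 desaturase that acts before FADS1 in the same pathway, was low at 24 h. It had 10.89, 10.90 and 10.79 at 0 h, 10.91, 10.79 and 10.97 at 8 h, and 10.46, 10.47 and 10.49 at 24 h. The 8 h and 0 h arrays overlapped, with a difference of 0.03 and a 95% confidence interval from -0.12 to 0.18. FADS2 fell at 24 h against untreated cells by 0.39 ± 0.06, 1.31-fold lower (limma adjusted p = 0.034), and this call was lost without untreated replicate 2 (limma adjusted p = 0.058). Between 8 h and 24 h the difference was -0.42 ± 0.06 (limma adjusted p = 0.051, and 0.039 without untreated replicate 2, when 0.727% of clusters were called). FADS3, a further gene of this family, gave 0.12 ± 0.08 at 24 h (limma adjusted p = 0.38).

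**Figure D3:**
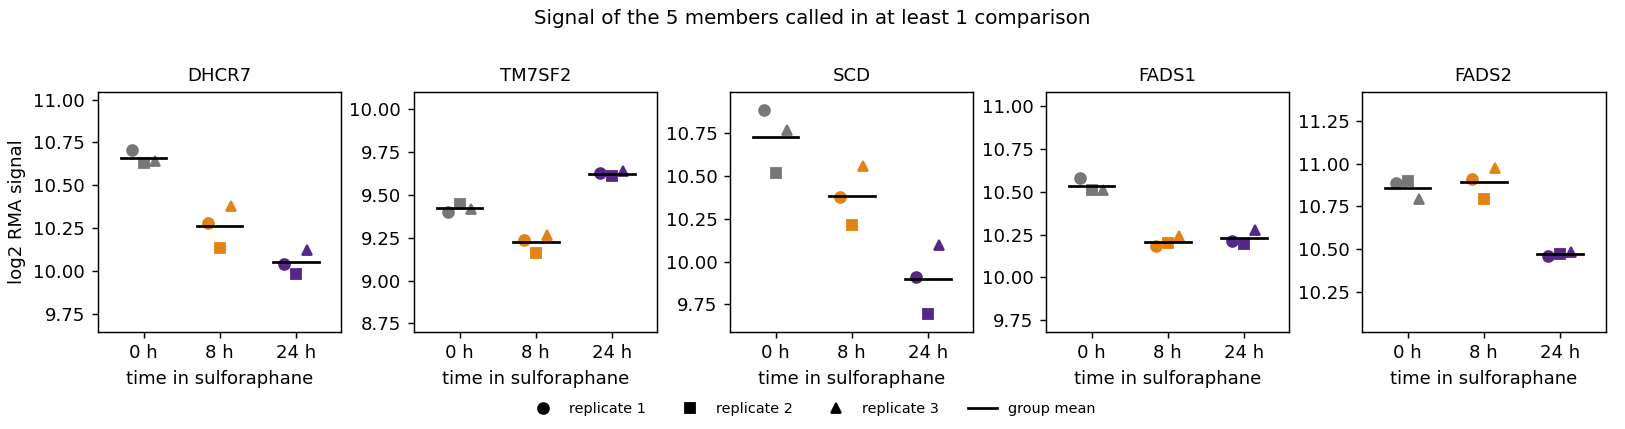
Log2 signal of the 5 members called in at least 1 comparison, on each array, by hours in sulforaphane, with replicates as symbols and the group mean as a line. DHCR7 and SCD are lowest at 24 h, FADS1 is low at 8 h and 24 h, FADS2 is low at 24 h, and TM7SF2 is lowest at 8 h and highest at 24 h. All panels span the same number of log2 units.

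None of the enzymes upstream of the desaturases was called. ACLY, which makes cytosolic acetyl-CoA from citrate, had a 24 h difference of -0.24 ± 0.06 and an 8 h difference of -0.02 ± 0.06 (limma adjusted p = 0.080 and 0.88). Its 24 h arrays, at 10.81, 10.75 and 10.85, lay below the untreated arrays at 11.08, 11.03 and 11.02. FASN, the fatty acid synthase, gave -0.21 ± 0.07 at 8 h and -0.33 ± 0.07 at 24 h (limma adjusted p = 0.23 and 0.068), and the arrays of both times lay below the untreated ones. ACACA, which commits acetyl-CoA to fatty acids, gave -0.17 ± 0.10 at 24 h, and ACSS2, which makes acetyl-CoA from acetate, gave -0.18 ± 0.10. ELOVL6, an elongase, and LPIN1, a phosphatidate phosphatase, were among the members low on untreated replicate 2, and their 24 h differences of -0.04 and 0.11 became -0.20 and -0.09 without it. The class median was -0.16 at 8 h and -0.24 at 24 h, with 6 and 8 of 9 genes lower. It stayed negative under all 22 alternative settings, and at 8 h it was -0.06 without 8 h replicate 2.

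Set side by side at 24 h, the class medians were -0.24 for fatty acid enzymes, -0.24 for late sterol genes, -0.15 for early sterol genes, -0.08 for SREBP regulators and 0.11 for uptake and transport. The median over the 30 members was -0.17 at 24 h and -0.15 at 8 h, against 0.02 and -0.01 over all clusters. The differences between classes were not tested, and the ranges overlapped. Late sterol genes ran from -0.61 to 0.20, early ones from -0.27 to 0.03, regulators from -0.28 to 0.66, uptake genes from -0.13 to 0.42 and fatty acid enzymes from -0.83 to 0.11. Without untreated replicate 2 the early median came to -0.23, close to the late median of -0.25 and the fatty acid median of -0.25. Counting members whose arrays did not overlap with the untreated ones at 24 h gave 13 lower and 3 higher, where 8.75% of all clusters were lower and 15.6% higher in this way. At 8 h the count was 10 lower and 1 higher, where 8.55% were lower and 9.06% higher. From 8 h to 24 h, 7 members were lower and 5 higher without overlap, where 6.40% and 15.2% of clusters were.

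**Figure D4:**
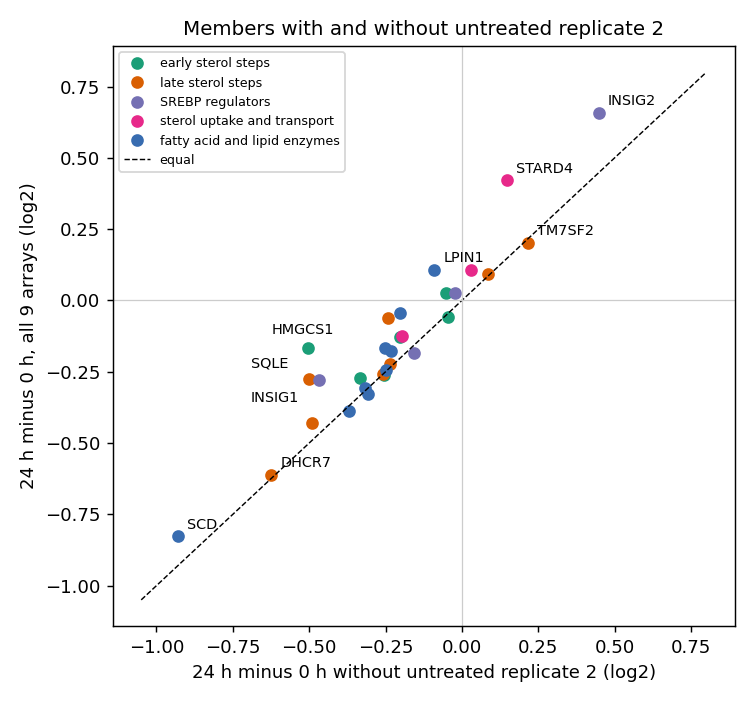
Difference of 24 h from 0 h (log2) for the 30 members, over all 9 arrays (vertical axis) and without untreated replicate 2 (horizontal axis), coloured by class, with a dashed line where both are equal. HMGCS1, SQLE, INSIG1, STARD4 and INSIG2 lie above the line, so their values without that array are lower, while DHCR7 and TM7SF2 lie close to it.

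The promoters of the called members are shown because sterol genes share control elements near their start. RefSeq windows from 250 bases before to 50 after each start on build GRCh38.p14, were matched by symbol to 28 of the 30 members, and FASN and SQLE had no entry. The NF-Y box CCAAT, a site for a factor that works together with SREBP, was searched on both strands, so that it also reads ATTGG. Capitals mark it in the windows of 4 called members below, which lie at chr11:71448344-71448643 on the minus strand for DHCR7, chr11:65111622-65111921 on the plus strand for TM7SF2, chr10:100346983-100347282 on the plus strand for SCD and chr11:61816154-61816453 on the plus strand for FADS2.
DHCR7: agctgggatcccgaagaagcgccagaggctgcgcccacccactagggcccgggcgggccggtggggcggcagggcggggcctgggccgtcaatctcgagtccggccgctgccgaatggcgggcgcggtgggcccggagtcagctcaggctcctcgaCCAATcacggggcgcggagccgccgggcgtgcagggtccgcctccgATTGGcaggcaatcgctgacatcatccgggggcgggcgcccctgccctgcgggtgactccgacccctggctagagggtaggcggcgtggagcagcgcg
TM7SF2: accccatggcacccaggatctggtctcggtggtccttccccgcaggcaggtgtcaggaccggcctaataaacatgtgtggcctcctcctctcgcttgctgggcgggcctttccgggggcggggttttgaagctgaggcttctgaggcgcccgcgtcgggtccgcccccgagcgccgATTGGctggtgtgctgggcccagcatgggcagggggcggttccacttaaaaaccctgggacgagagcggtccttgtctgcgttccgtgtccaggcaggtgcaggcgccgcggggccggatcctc
SCD: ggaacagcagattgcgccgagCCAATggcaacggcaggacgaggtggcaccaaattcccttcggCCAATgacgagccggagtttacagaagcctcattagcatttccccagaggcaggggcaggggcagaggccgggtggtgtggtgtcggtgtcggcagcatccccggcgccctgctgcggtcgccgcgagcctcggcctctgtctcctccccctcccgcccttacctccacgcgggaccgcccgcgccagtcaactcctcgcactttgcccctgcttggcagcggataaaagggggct
FADS2: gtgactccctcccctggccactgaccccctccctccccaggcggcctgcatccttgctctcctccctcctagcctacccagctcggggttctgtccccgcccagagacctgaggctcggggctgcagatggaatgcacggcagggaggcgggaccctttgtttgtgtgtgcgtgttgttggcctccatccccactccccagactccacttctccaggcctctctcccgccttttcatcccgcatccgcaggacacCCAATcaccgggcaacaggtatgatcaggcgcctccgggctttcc
The DHCR7 and SCD windows shown held 2 such boxes each, and those of TM7SF2 and FADS2 held 1. DHCR7 and FADS2 each have a second window in the table, at chr11:71448994-71449293 on the minus strand and chr11:61815953-61816252 on the plus strand, and neither holds a CCAAT. The FADS1 window held none.

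CCAAT was present for 20 of the 28 members (71.4%) and for 39.7% of 27303 genes in the table, counted over any window of a gene, or 34.6% of all 35114 windows. By class it was found for 7 of 7 late sterol genes, 5 of 6 early ones, 5 of 8 fatty acid enzymes, 2 of 3 uptake genes and 1 of 4 regulators. The GC box GGGCGG was present for 27 of 28 members (96.4%), against 48.3% of genes and 45% of windows. A strict core of the sterol regulatory element, TCACNCCAC, was found for 0 of 28 members, against 1.39% of genes and 1.13% of windows. The core of the antioxidant response element, TGACNNNGC, was found for 4 of 28 members (14.3%), EBP, HMGCS1, INSIG2 and LPIN1, against 16.1% of genes and 13.3% of windows. Each motif was searched on both strands and counted on its own where motifs overlapped. These are matches of letters in any window of a gene and describe no binding. The shares of genes are over the whole promoter table, whether or not a gene is on the array or expressed. They were not matched to the members for base content or number of windows, so a motif share above them was not tested as a trait of this pathway.

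In the lipid pathways around these genes, 49 genes in 6 further lists had a cluster, and none was called by limma in any comparison, with 4 at 8 h, 9 at 24 h and 6 from 8 h to 24 h of the 49 at an unadjusted p below 0.05, which 15.1%, 20.4% and 10.4% of all clusters had. TMEM97, a sterol-regulated membrane protein, came nearest. It had 9.95, 9.97 and 9.90 at 24 h, against 10.34, 10.23 and 10.22 in untreated cells, a difference of -0.33 ± 0.07 (limma adjusted p = 0.060). LIPA, the lysosomal acid lipase that frees cholesterol from esters, had 10.99, 10.80 and 10.83 at 24 h, against 10.50, 10.26 and 10.30 in untreated cells. Its difference was 0.52 ± 0.14 (limma adjusted p = 0.11). COQ2, which attaches the isoprenoid tail of coenzyme Q, had 9.22, 9.20 and 9.31 at 24 h, against 9.76, 9.38 and 9.83 in untreated cells. It gave -0.41 ± 0.12 over all arrays (limma adjusted p = 0.12), and -0.55 ± 0.06 without untreated replicate 2, where it passed (limma adjusted p = 0.017). RXRA, the partner of the oxysterol receptors, gave 0.12 ± 0.07 at 24 h (limma adjusted p = 0.38).

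Fatty acid oxidation had the highest list median at 24 h. The estimates of all 9 of its genes were above 0 with a median of 0.24, against 0.02 over all clusters, and 8 of 9 with a median of 0.105 without untreated replicate 2. SLC25A20, which carries acylcarnitines into mitochondria, had 9.50, 9.41 and 9.42 at 24 h, against 9.19, 8.73 and 9.13 in untreated cells. Its difference was 0.43 ± 0.11 (limma adjusted p = 0.11), and 0.28 ± 0.05 without untreated replicate 2 (limma adjusted p = 0.065). The other list medians at 24 h were 0.20 for the branches of the mevalonate pathway, 0.19 for sterol storage and transport, 0.11 for SREBP processing, 0.09 for fatty acid elongation and lipid assembly and 0.03 for the oxysterol response. Without untreated replicate 2 all 6 list medians lay between 0.03 and 0.11.

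**Figure D5:**
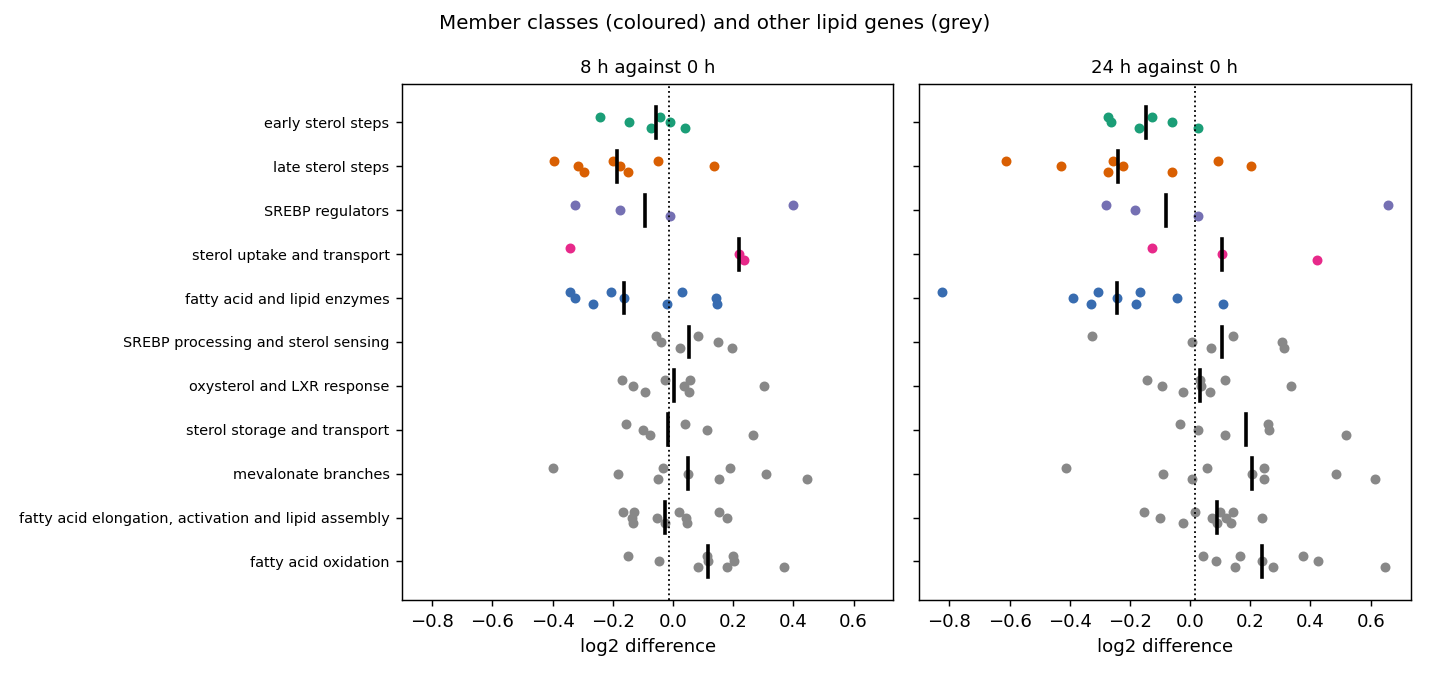
Log2 differences at 8 h (left) and 24 h (right) against 0 h over all 9 arrays, 1 point per gene, for the 5 member classes (coloured) and 6 lists of other lipid genes (grey), with bars at the medians and a dotted line at the median over all clusters. At 24 h the late sterol and fatty acid classes have medians of -0.24, and fatty acid oxidation has 0.24.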

How the data were processed

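The authors' deposited values are log2 RMA signals per core transcript cluster, 1 per array, made in Affymetrix Expression Console with sketch-quantile normalization, per the labels and the submitters' processing notes, with tool versions, annotation release and genome build not given in the sources used here. No further normalization was applied. Clusters were named through the platform annotation, and 14432 of 22011 carried a single symbol. A linear model with 1 mean per group was fitted to all 9 arrays in limma 3.58.1 (R 4.3.3), with eBayes and two-sided tests. Benjamini-Hochberg adjustment ran across all clusters in each of 3 comparisons and in an F-test over both comparisons with 0 h. The number of arrays limits the precision. The fit was tested on simulated data with equal spread on all arrays and changes larger than those called among the members. That test does not bear on these calls. Replicate numbers are not known to pair the arrays, and correlations of same-numbered arrays' deviations ran from -0.14 to 0.39. Between 24 h and 0 h they were 0.39, 0.38 and 0.06 for replicates 1, 2 and 3. All array values are given for members called in at least 1 comparison and for the 2 members of each class with the smallest F-test p, and array values of further members (LSS, NSDHL, ACLY and those that untreated replicate 2 affects) were added after their values were seen. Of each other list, the gene with the smallest F-test p is named, and LBR was added in the same way. Promoter sequences are from RefSeq. The members, lists, rules and tests were chosen with earlier results of these data known. Alternatives were other scalings, filters, eBayes settings and array weights, a replicate block, stricter thresholds, 2-group fits and leaving out each array. Gene-by-gene weights were added after seeing the data.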

Additional observations from a re-analysis of the deposited data

Results flagged for a closer look

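TM7SF2 differed between the exposure times. All 3 arrays at 8 h lay below the untreated arrays and all 3 at 24 h lay above them, and the difference of 24 h from 8 h was itself tested, at 0.40 ± 0.05 on the log2 scale (limma adjusted p = 0.033). It was 0.33 after quantile normalization and 0.36 after centring each array on its median, and passed under neither (limma adjusted p = 0.20 and 0.072). After centring, FADS2 was the member called in this comparison, at -0.46 (limma adjusted p = 0.043). The difference of 24 h from untreated cells was 0.20, but 0.07 after quantile normalization (limma adjusted p = 0.11 and 0.61). The difference of 24 h from 8 h did not pass under the replicate block either (limma adjusted p = 0.084).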

How the results depend on the processing

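No difference called in the main fit changed sign under any alternative. The counts of called members at 8 h, at 24 h, from 8 h to 24 h and in the F-test were 0, 4, 1 and 4, with 131, 357 and 72 of all clusters called in the 3 comparisons. Trended and robust eBayes left these 4 counts as they were. The first called 143, 375 and 72 of all clusters, and the second 122, 323 and 61. A replicate block gave 2 at 24 h, 0 from 8 h to 24 h and 2 in the F-test, where the numbers are not known to pair the arrays. It called 85, 378 and 44 of all clusters in the 3 comparisons. FADS1 and FADS2 lost their 24 h calls under the block (limma adjusted p = 0.060 and 0.057). Leaving out the lowest 25% of clusters, or those below the median, gave 2 at 8 h, 2 from 8 h to 24 h and 5 in the F-test, and the second also 5 at 24 h. The first filter called 302, 517 and 100 of 16508 clusters, and the second 312, 460 and 115 of 11006. Quantile normalization gave 1, 5, 0 and 5, with 390, 560 and 109 clusters called. Centring gave 2, 7, 1 and 4, with 288, 510 and 86 clusters. Averaging clusters of 1 symbol gave 1 at 8 h, with 140, 362 and 70 of 21811 clusters called. A threshold of 0.01 gave 0 in each comparison and in the F-test, with 19, 24 and 19 clusters called in the 3 comparisons. A minimum of 1.5-fold gave 2 at 24 h and 0 from 8 h to 24 h, with 80, 196 and 51 clusters. Fits of the 2 compared groups gave 0 at 24 h and 0 from 8 h to 24 h, with 9, 20 and 25 clusters. Array weights, whose estimation stopped before it converged, gave 23, 20, 5 and 25, with 9603, 9010 and 1516 clusters called, and gene-by-gene weights gave 7, 12, 4 and 15, with 1703, 1889 and 1325 clusters. Leaving out each array gave 0 to 1, 0 to 4, 0 to 2 and 0 to 5. In these fits 9 to 654, 21 to 768 and 4 to 160 of all clusters were called in the 3 comparisons. The F-test called 1.35% of all clusters in the main fit and 1.95% without untreated replicate 2. Under the other settings its share over all clusters is not given, so its member counts there cannot be read as particular to the members. Among the 11 members named by the rule, uncalled values changed sign for FADS2 at 8 h (-0.0142 after quantile normalization, -0.0095 to 0.0803 with arrays left out), IDI1 at 8 h (0.051 with array weights, -0.1346 to 0.054 with arrays left out), NPC1 at 24 h (-0.025 after quantile normalization), and FADS1 from 8 h to 24 h (-0.0374 after quantile normalization, -0.02 after centring, -0.0041 to 0.0378 with arrays left out). Of the other members, LPIN1 at both times, STARD4 and FDPS at 8 h, and PMVK and SCAP at 24 h changed sign without untreated replicate 2. Scaling moved the median of all clusters by less than 0.1. The cause of these changes was not tested.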

Other observations

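The 5 members without a cluster of their own could be followed only in clusters that carry 2 to 5 symbols, so no value can be given to 1 gene. Their differences ran from -0.04 to 0.31 at 8 h and from -0.27 to 0.32 at 24 h, and none was called by limma (the lowest adjusted p in any comparison was 0.31).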
